A study of Mus musculus with 10 samples.

Results

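The mitochondrial solute carriers encoded by the *Slc25* genes were followed in hearts of *Rit1* M90I/+ mice that had been given the MEK inhibitor trametinib (MEKi) or vehicle. Members were all protein-coding genes of the deposited table whose symbol begins with *Slc25a* and a number, which gave 47 of 54532 genes. Of these, 38 reached a mean of 0.5 FPKM over the 10 hearts and were among the 12602 genes compared between groups. FPKM are fragments scaled by gene length and by a size set for each library. Levels of different genes can thus be set side by side, but they depend on the length listed for each gene.

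Carriers of this family sit mostly in the inner mitochondrial membrane and exchange metabolites between the cytosol and the matrix, the compartment of the citric acid cycle and of fatty acid oxidation. Each is built from repeated segments, and every segment places paired helices across the membrane. In the heart, which draws most of its ATP from mitochondria, the exchange of ADP for ATP and the import of phosphate and acylcarnitines are the best known of their tasks.

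Both groups carried the heterozygous *Rit1* M90I allele, a change in a RAS-related GTPase altered in Noonan syndrome, in the germ line, since conditional mice had been crossed to a cytomegalovirus-Cre deleter strain. MEKi mice (n = 5) were dosed daily with trametinib at 1 mg/kg for 20 weeks, beginning at 4 weeks of age, and vehicle mice (n = 5) received the carrier solution of carboxymethylcellulose and detergent. No wild-type hearts were among the libraries analysed here, so a level in either group describes mutant tissue. The comparison asked which transcripts differed when MEK had been inhibited for this period.

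Each heart gave between 13647167 and 18474002 fragments assigned to genes, of which 24.0 to 35.0% came from the mitochondrial genome. The cardiomyocyte markers, 8 of 8 above the filter, summed to 16296 to 22623 FPKM per heart. Male and female littermates were used per the methods, and the X-linked transcript *Xist* had 1456 to 2199 fragments in each MEKi heart against at most 2 in each vehicle heart, while the Y-linked *Ddx3y* had 814 to 901 fragments in each vehicle heart and 0 in each MEKi heart. Treatment and sex-linked transcripts therefore cannot be told apart for any carrier. Some hearts also stood apart in transcripts of other cells or chambers. Vehicle hearts 4 and 5 had the highest erythroid sum (5 hemoglobin and heme synthesis genes, 23639 and 25874 FPKM, against 2899 to 7386 FPKM in the other hearts). Vehicle heart 4 and MEKi heart 2 had the highest adipocyte sum (98.1 and 96.7 FPKM, against 0.559 to 30.8 FPKM). Atrial markers summed to 861, 391 and 708 FPKM in vehicle hearts 4 and 5 and MEKi heart 2, against 2.86 to 42.7 FPKM elsewhere. Vehicle heart 5 further had the highest endothelial and macrophage sums (157.7 and 177.7 FPKM, against 93.8 to 127.5 and 96.5 to 137.1 FPKM). In whole tissue, fewer cells of a type and less RNA per cell cannot be told apart.

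Of the 38 carriers compared, 0 differed between MEKi and vehicle hearts at an adjusted p under 0.05 (limma on log2(FPKM + 0.1) with Benjamini-Hochberg adjustment over all genes, lowest adjusted p = 0.584), beside 10 of 12602 genes, or 0.0794%, in the whole table. Of these 10 genes 6 lie on X or Y, and without X, Y and mitochondrial genes 0 of 12178 genes were called by limma (924 at an unadjusted p under 0.05). An unadjusted p under 0.05 was found for 1 carrier, or 2.63% of them, beside 7.62% of all genes. The groups did not overlap for 1 carrier, again 2.63%, beside 1.64% of all genes. The fold change, given as the log2 difference of MEKi minus vehicle, was above 0 for 22 carriers (57.9%, beside 52.1% of all genes) and below 0 for 16, from −0.51 to 0.26. Its median over the carriers was 0.02, and 0.01 over all genes. At a mean of 50 FPKM or more it was 0.10 over 5 carriers and 0.08 over all genes. The split between directions rested on the scaling, with 26 above and 12 below 0 when FPKM were rescaled to an equal sum per heart and 19 in each direction when only nuclear genes entered that rescaling.

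These values also bound the size of a difference. The 95% interval of the log2 fold change lay within 2-fold in either direction for 37 of the 38 carriers and within 1.5-fold for 25. *Slc25a37*, an iron importer, was the carrier whose interval reached beyond 2-fold (−1.14 to 0.12). The spread between hearts of one group, the residual SD on the log2 scale, had a median of 0.251 for the carriers and 0.246 for all genes. By mean level it was 0.298 beside 0.287 at 0.5 to 5 FPKM and 0.237 beside 0.199 at 5 to 50 FPKM. At 50 FPKM or more it was 0.188 for the carriers beside 0.211 for all genes.

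**Figure D1:**
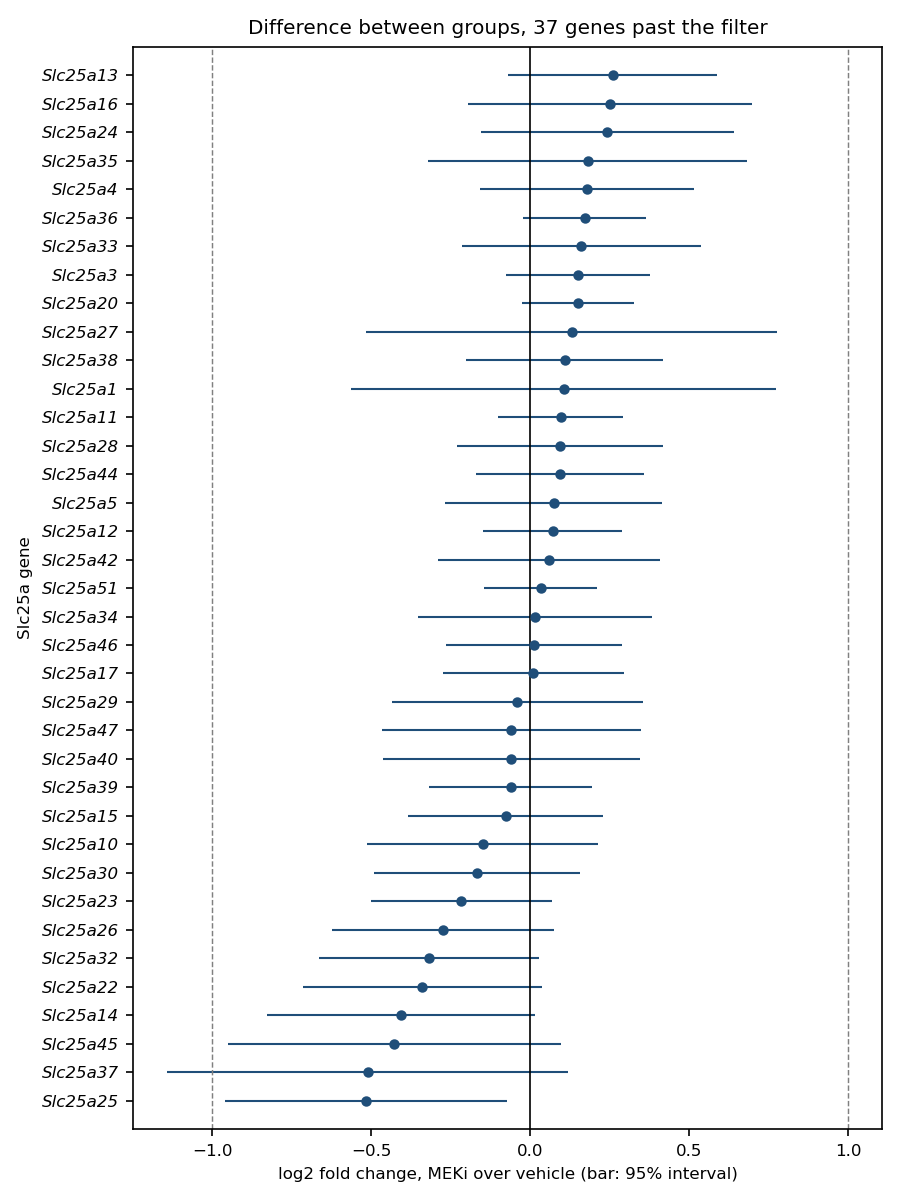
Log2 fold change (MEKi over vehicle, x axis) of 37 of the 38 *Slc25a* genes past the filter on low values (y axis, in order of the change), with points for the limma estimate and bars for its 95% interval. All points lie between −0.51 and 0.26, and the bars of 36 genes stay between the dashed lines at 2-fold (−1 and 1 on the log2 scale).

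Most carrier transcript came from few genes. The 4 highest, *Slc25a4*, *Slc25a3*, *Slc25a11* and *Slc25a5*, had means of at least 100 FPKM and held 91.7% of the FPKM summed over all members. A further 8 lay at 10 to 100 FPKM, 22 at 1 to 10 FPKM and 4 at 0.5 to 1 FPKM. The sum over members was 3590 ± 581 FPKM in vehicle hearts (SD, n = 5; 2847 to 4461) and 3967 ± 363 FPKM in MEKi hearts (SD, n = 5; 3591 to 4474), so the ranges of the groups overlapped. It made up 0.956 to 1.44% of the FPKM of all nuclear genes.

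**Figure D2:**
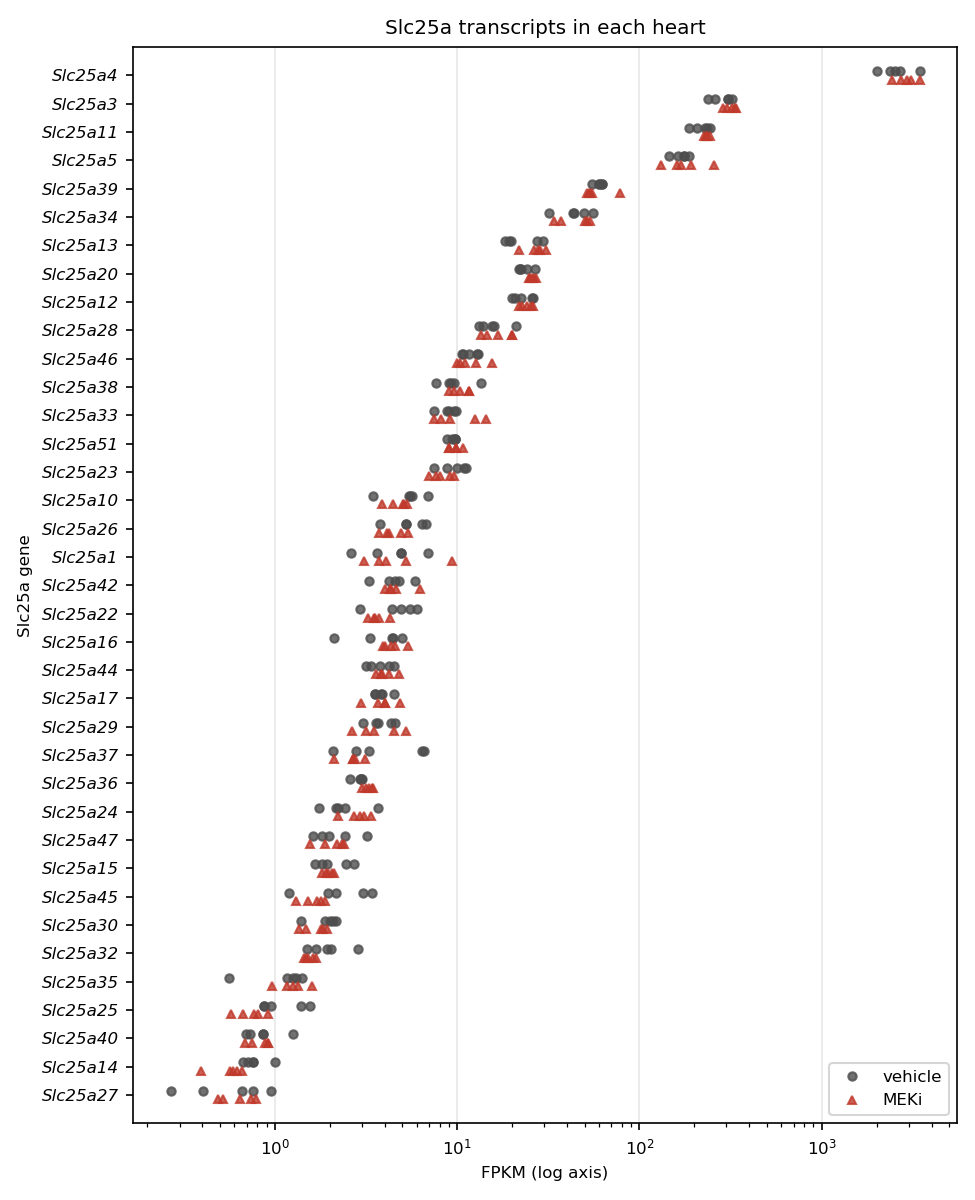
Transcript level (FPKM, log axis) of 37 of the 38 *Slc25a* genes past the filter (y axis, in order of their mean), with 1 grey circle per vehicle heart and 1 red triangle per MEKi heart. *Slc25a4*, at 2001 to 3436 FPKM, stands apart from every other carrier, and circles and triangles overlap for all genes shown but *Slc25a14*.

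The 13 members grouped under adenine nucleotides, phosphate or coenzyme A, not all with an established substrate, included the most abundant of the family, and 9 passed the filter. *Slc25a4* (ANT1, the ADP/ATP exchanger of heart and muscle; ENSMUSG00000031633, chromosome 8, 46206797 to 46211284, minus strand) was at 3436, 2534, 2356, 2685 and 2001 FPKM in vehicle hearts 1 to 5 and at 3081, 2933, 2725, 3436 and 2425 FPKM in MEKi hearts 1 to 5. Vehicle heart 1 and MEKi heart 4 were highest and vehicle heart 5 lowest, and the groups overlapped. With a mean of 2761 FPKM it ranked 19 among all genes of the table, held 73.1% of the members' sum and exceeded the next member 9.18-fold. The group means were 2603 ± 531 and 2919.7 ± 379 FPKM (SD, n = 5 each), and the log2 fold change was 0.18 (SE 0.15, limma with Benjamini-Hochberg adjustment, adjusted p = 0.820). With 1 heart left out it ran from 0.09 (without vehicle heart 5) to 0.29 (without vehicle heart 1).

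*Slc25a5* (ANT2, the more widely expressed ADP/ATP exchanger; ENSMUSG00000016319, chromosome X, 36795651 to 36798807, plus strand) was at 175, 187, 163, 176 and 145 FPKM in the vehicle hearts and at 192, 169.7, 131, 161 and 256 FPKM in the MEKi hearts. MEKi hearts 3 and 5 were the lowest and the highest of all 10, so the vehicle range lay inside the MEKi range. Between groups it differed by a log2 fold change of 0.07 (SE 0.16, limma with Benjamini-Hochberg adjustment, adjusted p = 0.943). A processed pseudogene, *Slc25a5-ps*, is listed at 0 in all hearts. *Slc25a31*, the third exchanger and mainly a testis gene, stayed under the filter with at most 19 fragments in a heart.

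Sequences around the annotated starts of *Slc25a4* and *Slc25a5* are shown because the genes share a substrate and differ widely in level. RefSeq windows (build GRCm38.p6) reach from 250 bases before to 50 bases from the annotated start and are written 5′ to 3′ on the strand of the gene, with capitals for GGGCGG (the GC box) and CCAAT on either strand. The *Slc25a4* window is chr8:46211013-46211312 (minus strand, 65.7% G and C), and the *Slc25a5* window is chrX:36795347-36795646 (plus strand, 61.0% G and C). RefSeq starts differ from the gene ends given above. The *Slc25a4* window lies mostly inside the gene as listed there, and the *Slc25a5* window ends before its listed start.
Slc25a4: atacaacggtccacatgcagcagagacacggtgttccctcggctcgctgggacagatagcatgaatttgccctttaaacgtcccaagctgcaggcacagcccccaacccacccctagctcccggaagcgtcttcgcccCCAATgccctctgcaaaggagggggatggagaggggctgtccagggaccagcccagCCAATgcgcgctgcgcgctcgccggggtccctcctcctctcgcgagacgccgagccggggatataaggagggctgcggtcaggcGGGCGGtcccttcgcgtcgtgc
Slc25a5: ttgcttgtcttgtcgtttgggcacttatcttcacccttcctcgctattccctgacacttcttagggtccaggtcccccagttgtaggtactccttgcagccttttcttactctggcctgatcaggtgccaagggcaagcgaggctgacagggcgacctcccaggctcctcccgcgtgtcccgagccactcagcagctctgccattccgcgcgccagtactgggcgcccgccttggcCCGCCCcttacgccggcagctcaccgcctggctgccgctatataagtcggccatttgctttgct
The *Slc25a4* window held 1 GC box and 2 CCAAT matches, and the *Slc25a5* window 1 GC box and 0 CCAAT matches. RefSeq windows were at hand for 36 of the 47 members (46 windows). GGGCGG was found on either strand in 82.6% of the 46, in 35.7% of all 32851 windows and in 62.9% of the 11320 windows of coding genes past the filter. CCAAT was in 47.8% of the members' windows, 37.4% of all windows and 37.2% of those of coding genes past the filter. TATAAA was found in 4.35%, 13.6% and 7.19% in the same order, and the motif AAGGTCA, bound by estrogen-related receptors, in 2.17%, 4.72% and 3.22%. TGACGTCA, the cAMP response element, occurred in 4.35%, 1.79% and 2.89%. The motif of nuclear respiratory factor 1 (GCGC, any 2 bases, GCGC) was found in 6.52%, 6.23% and 13.0%. Its share among members rested on 3 windows, those of TATAAA and TGACGTCA on 2 each and that of AAGGTCA on 1. Differences in these 4 motifs are therefore imprecise. The shares of GGGCGG and CCAAT, in 38 and 22 of the members' windows, were above those of coding genes past the filter. Members' windows were not limited to members past the filter. The median G and C content was 59.3% for members, 52.7% for all windows and 61.0% for coding genes past the filter. All motifs were searched on both strands, and none contains another. These matches describe letters in a window and not sites in use.

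*Slc25a3* (the phosphate carrier; ENSMUSG00000061904, chromosome 10, 91116574 to 91124059, minus strand) was at 306, 304, 320.3, 259.8 and 237 FPKM in the vehicle hearts and at 336, 300.1, 286, 321 and 335 FPKM in the MEKi hearts. Vehicle hearts 4 and 5 were the lowest, and the remaining vehicle hearts lay within the MEKi range. This gave a log2 fold change of 0.15 (SE 0.10, limma with Benjamini-Hochberg adjustment, adjusted p = 0.771), which was 0.09 without vehicle heart 5 (adjusted p = 0.921).

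The ATP-Mg/phosphate carriers adjust the adenine nucleotide pool of the matrix, and most are opened by cytosolic calcium. *Slc25a25* (ENSMUSG00000026819, chromosome 2, 32414487 to 32451445, minus strand) had the lowest p of all carriers. It was at 0.877, 0.873, 0.957, 1.39 and 1.56 FPKM in the vehicle hearts and at 0.772, 0.912, 0.572, 0.811 and 0.672 FPKM in the MEKi hearts, from 66 to 178 fragments per heart. Vehicle hearts 4 and 5 were above all others, while vehicle hearts 1 and 2 lay below MEKi heart 2, so the groups overlapped. The means were 1.13 ± 0.319 and 0.748 ± 0.131 FPKM (SD, n = 5 each), with a log2 fold change of −0.51 (SE 0.20, limma unadjusted p = 0.0266, Benjamini-Hochberg adjusted p = 0.584). Without vehicle hearts 4 and 5 it was −0.26 (limma with Benjamini-Hochberg adjustment, adjusted p = 0.839), and removing the highest vehicle values was bound to shrink it. The same hearts stood apart in erythroid and atrial transcripts, and the part of these tissues in the level of *Slc25a25* was not tested. Its exons share 379 bases with the opposite-strand gene *Naif1*, and whether strand was used in counting is not given in the sources used here. Among its relatives, *Slc25a23* ranged from 7.01 to 11.2 FPKM and *Slc25a24* from 1.75 to 3.68 FPKM over the 10 hearts. *Slc25a41* had 3 fragments in 1 heart and 0 in the others, and *Slc25a54* had 0 in every heart, which allows up to 0.121 FPKM.

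*Slc25a42*, which imports coenzyme A, ranged from 3.28 to 6.28 FPKM, and *Slc25a16*, also linked to coenzyme A, from 2.10 to 5.38 FPKM with its lowest value in vehicle heart 5. *Slc25a17*, a carrier of the peroxisome rather than of mitochondria, ranged from 2.97 to 4.87 FPKM. *Slc25a43*, whose substrate is not established, had at most 6 fragments in a heart. In this group 7 of the 9 carriers compared had a log2 fold change above 0 (median 0.07), and 0 passed the test.

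Of the 11 members grouped as amino acid carriers, 8 passed the filter. Both aspartate/glutamate carriers of the malate-aspartate shuttle, which brings cytosolic reducing equivalents into the matrix, were well expressed. *Slc25a13* (citrin; ENSMUSG00000015112, chromosome 6, 6041218 to 6217173, minus strand) was at 18.3, 27.4, 29.7, 19.7 and 19.2 FPKM in the vehicle hearts and at 30.8, 22.0, 26.3, 28.5 and 27.6 FPKM in the MEKi hearts. Vehicle hearts 1, 4 and 5 were below every MEKi heart, whereas vehicle hearts 2 and 3 lay inside the MEKi range. Its log2 fold change, 0.26, was the highest of the family (SE 0.15, limma with Benjamini-Hochberg adjustment, adjusted p = 0.720). *Slc25a12* (aralar) ranged from 19.9 to 26.1 FPKM.

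*Slc25a22*, a glutamate carrier, is described here after its values were seen. It was at 6.04, 5.49, 4.94, 4.41 and 2.94 FPKM in the vehicle hearts and at 3.54, 3.24, 3.50, 3.70 and 4.30 FPKM in the MEKi hearts, and vehicle hearts 1 to 4 were above every MEKi heart and vehicle heart 5 was below them all. With all hearts the log2 fold change was −0.34 (SE 0.17, limma with Benjamini-Hochberg adjustment, adjusted p = 0.673). Without vehicle heart 5 it was −0.50 (limma with Benjamini-Hochberg adjustment, adjusted p = 0.368), and with 1 heart left out it was otherwise at −0.24 or lower. *Slc25a18*, the second glutamate carrier, had at most 9 fragments in a heart.

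*Slc25a45*, also chosen after its values were seen, was at 3.43, 2.17, 1.19, 1.95 and 3.03 FPKM in the vehicle hearts and at 1.30, 1.78, 1.88, 1.52 and 1.71 FPKM in the MEKi hearts. Vehicle hearts 1 and 5 were the highest and vehicle heart 3 the lowest of all 10. Its log2 fold change was −0.43 with all hearts and −0.64 without vehicle heart 3 (limma with Benjamini-Hochberg adjustment, adjusted p = 0.715 and 0.317). Without vehicle heart 1 it was −0.28 (limma with Benjamini-Hochberg adjustment, adjusted p = 0.715). Of the remaining amino acid carriers, *Slc25a38*, a glycine carrier needed for heme synthesis, ranged from 7.68 to 13.5 FPKM, and *Slc25a44*, which takes up branched-chain amino acids, from 3.17 to 4.82 FPKM. *Slc25a29*, for basic amino acids, ranged from 2.66 to 5.26 FPKM, and *Slc25a15*, the ornithine carrier of the urea cycle, from 1.66 to 2.71 FPKM. Its relative *Slc25a2* did not exceed 7 fragments in any heart, and *Slc25a48* had 0 in each, which allows up to 0.0639 FPKM. The log2 fold change was above 0 for 4 and below 0 for 4 of the 8 (median 0.02), and 0 passed the test.

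**Figure D3:**
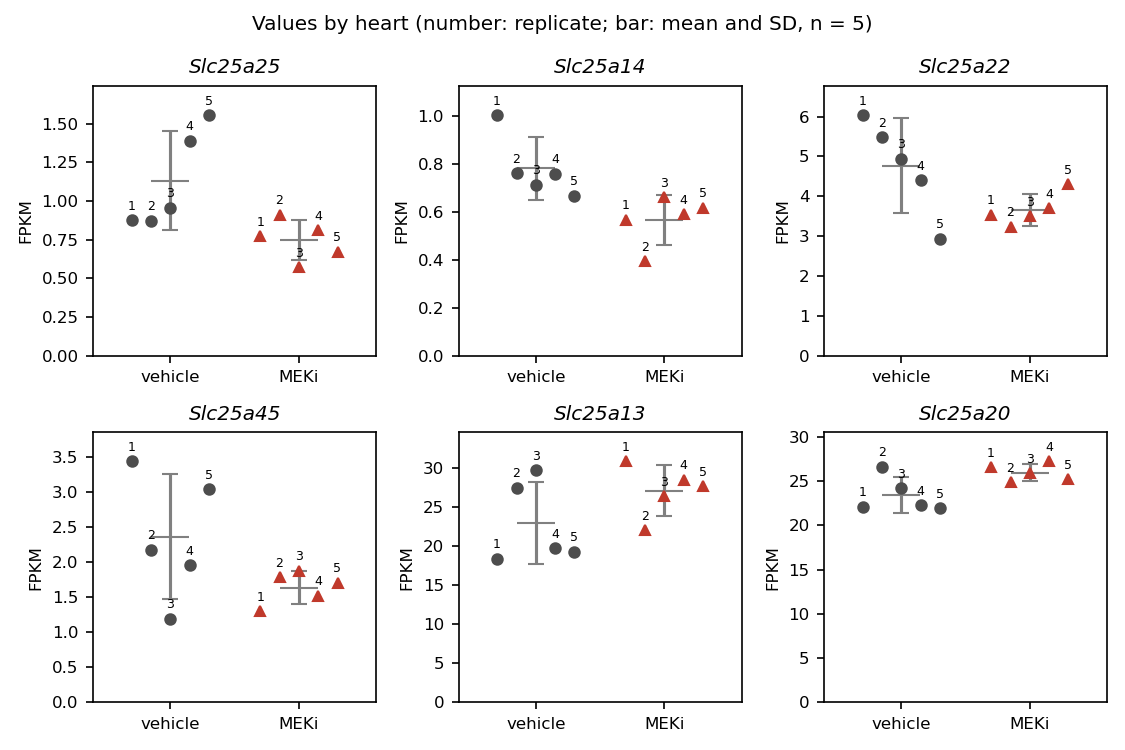
Transcript level (FPKM, y axis from 0) of 6 carriers in each vehicle (grey circle) and MEKi (red triangle) heart, with the replicate number above each point and a grey bar for the mean and SD (n = 5). *Slc25a14* is the only 1 of the 6 whose groups do not overlap (0.669 to 1.01 against 0.394 to 0.662 FPKM), while for *Slc25a22* vehicle heart 5, at 2.94 FPKM, lies below the MEKi hearts and the other vehicle hearts above them.

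The group of carboxylate and acylcarnitine carriers held 8 members, some of them placed there without an established substrate, and 7 passed the filter. *Slc25a11* (the oxoglutarate/malate carrier, the other arm of the malate-aspartate shuttle; ENSMUSG00000014606, chromosome 11, 70644196 to 70647479, minus strand) was at 229, 245, 233, 206 and 188 FPKM in the vehicle hearts and at 244, 225, 232, 235 and 235 FPKM in the MEKi hearts. Vehicle hearts 4 and 5 were the lowest, and the MEKi hearts were the more uniform, with an SD of 7.04 against 23.0 FPKM. MEKi over vehicle, the log2 fold change was 0.10 (SE 0.09, limma with Benjamini-Hochberg adjustment, adjusted p = 0.829). *Slc25a20* (the carnitine/acylcarnitine carrier, by which long-chain fatty acids enter for oxidation; ENSMUSG00000032602, chromosome 9, 108662088 to 108684641, plus strand) was at 22.1, 26.6, 24.2, 22.3 and 21.9 FPKM in the vehicle hearts and at 26.5, 24.9, 25.8, 27.2 and 25.2 FPKM in the MEKi hearts. Vehicle hearts 1, 3, 4 and 5 were below every MEKi heart, and vehicle heart 2 was inside the MEKi range. The difference amounted to a log2 fold change of 0.15 (SE 0.08, interval −0.03 to 0.33, limma with Benjamini-Hochberg adjustment, adjusted p = 0.697).

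*Slc25a34* (ENSMUSG00000040740, chromosome 4, 141618824 to 141623821, minus strand), a family member without an established substrate, was at 43.3, 49.4, 55.4, 44.0 and 32.0 FPKM in the vehicle hearts and at 51.7, 34.2, 50.2, 53.4 and 37.0 FPKM in the MEKi hearts. MEKi hearts 2 and 5 and vehicle heart 5 were the lowest, and the groups overlapped almost fully. *Slc25a34* had a log2 fold change of 0.01 (SE 0.17, limma with Benjamini-Hochberg adjustment, adjusted p = 0.988), and its sign depended on the scaling and on single hearts. *Slc25a35*, likewise without an established substrate, ranged from 0.561 to 1.60 FPKM with the lowest value in vehicle heart 5, and its exons share 1151 bases with the opposite-strand *Rangrf*. *Slc25a10*, the dicarboxylate carrier, ranged from 3.44 to 6.91 FPKM, and *Slc25a47*, a mainly hepatic gene, from 1.56 to 3.19 FPKM. *Slc25a21*, the oxodicarboxylate carrier, had at most 8 fragments in a heart.

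*Slc25a1*, which exports citrate for fatty acid synthesis, was chosen after its values were seen. It was at 4.89, 4.94, 2.60, 6.90 and 3.65 FPKM in the vehicle hearts and at 4.07, 9.43, 5.25, 3.07 and 3.71 FPKM in the MEKi hearts. MEKi heart 2 and vehicle heart 4 were the highest, and these were the hearts in which *Cfd* (adipsin, a defining adipocyte transcript) was at 81.0 and 83.0 FPKM, against 0.229 to 25.4 FPKM in the other 8. With all hearts the log2 fold change of *Slc25a1* was 0.11, and without those hearts 0.02 (limma with Benjamini-Hochberg adjustment, adjusted p = 0.959 and 0.991). The part of adipose or atrial tissue in the level of *Slc25a1* was not tested. In the carboxylate group 5 of 7 had a log2 fold change above 0 (median 0.10), and 0 passed the test.

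All 10 carriers of cofactors, nucleotides, iron and glutathione passed the filter. *Slc25a39*, a glutathione importer (ENSMUSG00000018677, chromosome 11, 102402985 to 102407946, minus strand), was at 62.3, 59.8, 55.2, 62.5 and 59.9 FPKM in the vehicle hearts and at 53.2, 55.1, 52.6, 51.5 and 78.6 FPKM in the MEKi hearts. MEKi heart 5 was above all other hearts, and MEKi hearts 1 to 4 were below every vehicle heart. The log2 fold change was −0.06 (SE 0.12, limma with Benjamini-Hochberg adjustment, adjusted p = 0.936). It was −0.17 without MEKi heart 5 (adjusted p = 0.725 by the same test, the lowest of the carriers without that heart) and −0.02 without MEKi heart 4, and it turned positive, to 0.02, when FPKM were rescaled to an equal sum per heart. Its paralog *Slc25a40* ranged from 0.687 to 1.27 FPKM.

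The mitoferrins carry iron into the matrix for heme and iron-sulfur clusters, and *Slc25a37* is the form of developing red cells. Chosen after its values were seen, *Slc25a37* was at 2.77, 3.27, 2.08, 6.60 and 6.45 FPKM in the vehicle hearts and at 2.10, 2.77, 3.11, 2.68 and 2.70 FPKM in the MEKi hearts. Vehicle hearts 4 and 5 held more *Slc25a37* than any other heart. In the same hearts *Alas2*, the erythroid enzyme of heme synthesis, was at 154 and 177 FPKM, against 11.3 to 28.9 FPKM in the other 8. The log2 fold change of *Slc25a37* was −0.51 with all hearts and −0.0064 without vehicle hearts 4 and 5 (limma with Benjamini-Hochberg adjustment, adjusted p = 0.715 and 0.996). Leaving out the hearts highest in the gene itself had to shrink this difference. Those hearts also stood apart in atrial transcripts, and vehicle heart 5 in endothelial and macrophage ones. The part of red cells or of other tissue in the level of *Slc25a37* was not tested. *Slc25a28*, the mitoferrin of other tissues, ranged from 13.2 to 20.9 FPKM and was the more abundant of the pair in every heart.

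**Figure D4:**
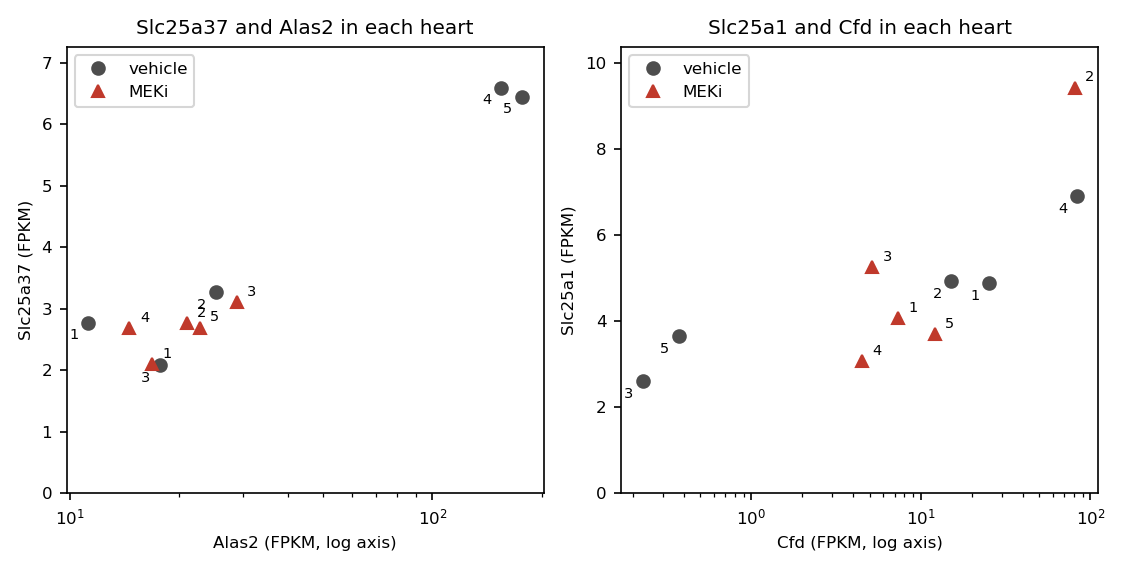
Left, *Slc25a37* (FPKM, y axis) against the erythroid transcript *Alas2* (FPKM, log x axis), and right, *Slc25a1* against the adipocyte transcript *Cfd*, with 1 point per heart (grey circle, vehicle; red triangle, MEKi; replicate number beside it). Vehicle hearts 4 and 5 are alone at the upper right on the left (6.60 and 6.45 FPKM of *Slc25a37*), and MEKi heart 2 and vehicle heart 4 on the right (9.43 and 6.90 FPKM of *Slc25a1*).

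Among the other carriers of this group, *Slc25a33* and *Slc25a36*, both for pyrimidine nucleotides, ranged from 7.42 to 14.3 and from 2.60 to 3.47 FPKM. *Slc25a36* had the narrowest spread of the 38 carriers compared (residual SD 0.0820 on the log2 scale), with vehicle hearts at 2.60 to 3.02 and MEKi hearts at 3.01 to 3.47 FPKM. Its log2 fold change was 0.17 (SE 0.09, limma with Benjamini-Hochberg adjustment, adjusted p = 0.679). *Slc25a51*, which imports NAD, was nearly as even, from 8.77 to 10.7 FPKM. *Slc25a26* (S-adenosylmethionine) ranged from 3.71 to 6.74 FPKM and *Slc25a32* (folate and FAD) from 1.44 to 2.86 FPKM. *Slc25a26* shares 144 exon bases with the opposite-strand *Lrig1*, which was at a like level. In this group 4 of 10 had a log2 fold change above 0 (median −0.06), and 0 passed the test.

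The last 5 members comprise relatives of the uncoupling proteins and others, and 4 passed the filter. *Slc25a14* (ENSMUSG00000031105, chromosome X, 48623413 to 48662294, plus strand), related to the uncoupling proteins, was the carrier whose groups did not overlap. It was at 1.01, 0.763, 0.714, 0.760 and 0.669 FPKM in the vehicle hearts and at 0.568, 0.394, 0.662, 0.591 and 0.619 FPKM in the MEKi hearts, from 16 to 40 fragments per heart. Every vehicle heart was above every MEKi heart, with vehicle heart 5 and MEKi heart 3 nearly level. The means were 0.782 ± 0.131 and 0.567 ± 0.103 FPKM (SD, n = 5 each), and the log2 fold change was −0.41 (SE 0.19, limma with Benjamini-Hochberg adjustment, adjusted p = 0.663). The groups overlapped when FPKM were rescaled to an equal sum per heart, over all or over nuclear genes. *Slc25a14* is X-linked, and the hearts also divided by *Xist* and *Ddx3y* as they did by treatment.

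*Slc25a30* and *Slc25a27*, likewise related to the uncoupling proteins, ranged from 1.36 to 2.17 and from 0.268 to 0.952 FPKM. *Slc25a46*, an outer membrane protein that acts in mitochondrial dynamics, ranged from 10.02 to 15.5 FPKM. *Slc25a53*, X-linked and without a known substrate, had 11 to 42 fragments per heart and stayed under the filter. In this group the log2 fold change was above 0 for 2 and below 0 for 2 of the 4 (median −0.08), and 0 passed the test.

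In all, the 9 members under the filter (*Slc25a53*, *Slc25a2*, *Slc25a31*, *Slc25a18*, *Slc25a43*, *Slc25a21*, *Slc25a41*, *Slc25a54* and *Slc25a48*) had mean levels from 0 to 0.185 FPKM, with no heart above 42 fragments. Those above 0 entered only the fit without a filter, in which 0 carriers had an adjusted p under 0.05 (limma, Benjamini-Hochberg adjustment). The 47 genes are spread over 19 chromosomes, with 4 genes on X.

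Plain ratios of paralogs within a heart do not depend on the scaling of the library. The log2 ratios tested had 0.1 added to each FPKM first, so for genes near 1 FPKM they depend on it somewhat. Of 10 pairs listed, 9 had both genes past the filter, and 0 of the 9 had an unadjusted or adjusted p under 0.05 for the log2 ratio between groups (two-sided exact permutation test, lowest p adjusted over the pairs = 0.375; smallest possible unadjusted p, 0.00794). Adjusted over 9 pairs, that smallest p stays above 0.05 when only 1 pair reaches it. The adjusted result therefore cannot exclude a difference in a single pair. The ratio of *Slc25a4* to *Slc25a5* was 19.6, 13.5, 14.5, 15.2 and 13.8 in vehicle hearts 1 to 5 and 16.0, 17.3, 20.8, 21.4 and 9.47 in MEKi hearts 1 to 5. MEKi heart 5, the highest of all for *Slc25a5* and the lowest of its group for *Slc25a4*, had the lowest ratio, and the vehicle range lay inside the MEKi range. The log2 ratio differed by 0.11 between groups (exact permutation p = 0.675), and by 0.0085 without MEKi heart 4 and 0.30 without MEKi heart 5.

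Aralar and citrin were close to parity. The ratio of *Slc25a12* to *Slc25a13* was 1.22, 0.937, 0.880, 1.01 and 1.07 in the vehicle hearts and 0.827, 0.989, 0.866, 0.849 and 0.940 in the MEKi hearts, and its log2 difference of −0.19 had the lowest p of the pairs (exact permutation p = 0.0714, adjusted p = 0.375). *Slc25a28* exceeded *Slc25a37* by 2.35 to 7.54 times in vehicle hearts and by 5.43 to 7.46 times in MEKi hearts, with the lowest ratios in vehicle hearts 4 and 5. *Slc25a39* exceeded *Slc25a40* by 47.3 to 86.0 and 58.4 to 85.6 times, and *Slc25a33* exceeded *Slc25a36* by 2.54 to 3.41 and 2.35 to 4.14 times. The dicarboxylate carrier *Slc25a10* was at 0.0183 to 0.0282 and 0.0168 to 0.0227 of the level of *Slc25a11*. For *Slc25a23* over *Slc25a24*, *Slc25a23* over *Slc25a25* and *Slc25a14* over *Slc25a30* the log2 ratio differed by −0.46, 0.30 and −0.24 (exact permutation p = 0.167, 0.365 and 0.278). Single hearts moved these differences, to −0.70 without vehicle heart 5 for *Slc25a23* over *Slc25a24*, to 0.09 without vehicle heart 5 for *Slc25a23* over *Slc25a25* and to −0.05 without vehicle heart 1 for *Slc25a14* over *Slc25a30*. Each of the 10 hearts was left out in turn for each of the 9 pairs. Over all these tests an unadjusted exact permutation p under 0.05 was found 4 times, for 4 different pairs. Chance gives such a p in about 1 of 20 tests. These were *Slc25a10* over *Slc25a11* and *Slc25a23* over *Slc25a24* without vehicle heart 5 (exact permutation p = 0.0159 and 0.0238), *Slc25a12* over *Slc25a13* without vehicle heart 3 (exact permutation p = 0.0397) and *Slc25a28* over *Slc25a37* without vehicle heart 1 (exact permutation p = 0.0397). The lowest p adjusted over the pairs was then 0.107 (exact permutation, without vehicle heart 5), and 1 pair alone could not have reached 0.05 here either.

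Single hearts stood apart over many carriers. Vehicle heart 5 was the lowest of the 10 hearts for 12 of the 38 carriers, or 31.6%, beside 17.2% of all genes, and its median deviation from the gene means was −0.25 on the log2 scale, beside −0.01 for all genes. MEKi heart 5 was the highest for 10 carriers, or 26.3%, beside 12.9% of all genes. Without vehicle heart 5, 7 carriers, among them *Slc25a10*, *Slc25a14*, *Slc25a22*, *Slc25a23*, *Slc25a24* and *Slc25a26*, had an unadjusted limma p under 0.05, or 18.4% of them, beside 6.87% of all genes, and 0 had an adjusted p under 0.05. The median log2 fold change of the carriers was then −0.02, with 17 above and 21 below 0. The part of the endothelial, macrophage, atrial and erythroid transcripts of vehicle heart 5 in these values was not tested. Without vehicle heart 3, 4 carriers (*Slc25a13*, *Slc25a25*, *Slc25a37* and *Slc25a45*), or 10.5%, had an unadjusted limma p under 0.05, beside 9.92% of all genes. The number of carriers with an unadjusted limma p under 0.05, 1 with all hearts, was 0 without vehicle heart 4 or without MEKi heart 3. It was 5 (13.2%, beside 7.24% of all genes) without vehicle hearts 4 and 5, and 3 (7.89%, beside 6.39%) without these and MEKi heart 2, the hearts highest in atrial transcripts.

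**Figure D5:**
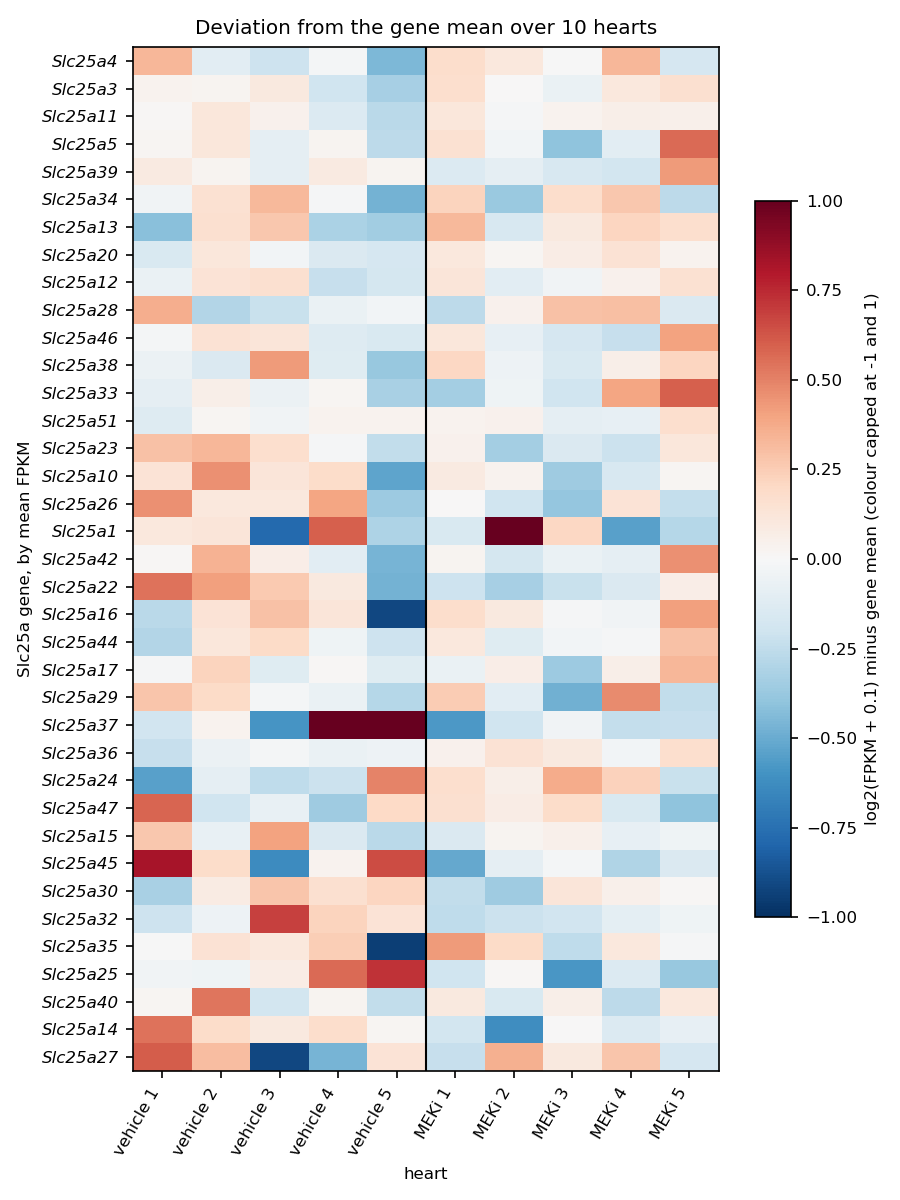
Deviation of log2(FPKM + 0.1) from the gene mean over the 10 hearts (color, capped at −1 and 1) for 37 of the 38 *Slc25a* genes (y axis, in order of mean FPKM) in each heart (x axis, vehicle left of the line). The column of vehicle heart 5 is mostly blue (median deviation −0.25 over the 38), with red for *Slc25a37*, *Slc25a25*, *Slc25a45* and *Slc25a24* among the exceptions.

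Genes that act with the carriers were read as whole lists. Of the family members under other names (*Ucp1*, *Ucp2*, *Ucp3*, *Mtch1* and *Mtch2*), 4 passed the filter and 0 had an adjusted p under 0.05. *Ucp3*, the uncoupling protein of muscle, was at 11.5, 6.86, 5.29, 9.65 and 8.22 FPKM in the vehicle hearts and at 4.30, 4.05, 7.62, 8.19 and 2.23 FPKM in the MEKi hearts, so the ranges overlapped (log2 fold change −0.74, SE 0.33, limma unadjusted p = 0.0431, Benjamini-Hochberg adjusted p = 0.635). The 13 genes of the import route for carriers (TOM receptors, small TIM chaperones and the TIM22 insertase) all passed the filter, 7 with a log2 fold change above 0 and 6 below, and 0 had an unadjusted or adjusted p under 0.05. The highest of them, *Timm8b* and *Timm10*, were at 155 to 226 and 62.7 to 89.5 FPKM.

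Of 21 other genes of mitochondrial transport, 19 passed the filter and 0 had an adjusted p under 0.05, with 10 above 0 and 9 below. *Vdac1*, the main pore of the outer membrane through which carrier substrates pass, was at 301, 314, 304, 312 and 256 FPKM in the vehicle hearts and at 358, 342, 339.7, 356 and 360.0 FPKM in the MEKi hearts. Every MEKi heart was above every vehicle heart in FPKM, which held for 1 of the 21 genes listed, beside 1.64% of all genes past the filter. When FPKM were rescaled to an equal sum per heart, vehicle heart 2 lay above MEKi hearts 3 and 4, so the groups overlapped. The log2 fold change in FPKM was 0.24 (SE 0.08, limma unadjusted p = 0.0143, Benjamini-Hochberg adjusted p = 0.521). *Cpt1b*, which makes the acylcarnitines that *Slc25a20* imports, was listed at 0.125 to 0.744 FPKM and stayed under the filter. Of its exon bases 81.4% are shared with the same-strand gene Gm44502, listed at 0 in every heart, and since the handling of shared reads is not given in the sources used here, the level of *Cpt1b* is uncertain. *Cpt2*, which acts after *Slc25a20*, was at 70.1 to 97.3 FPKM.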

How the data were processed

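RNA of 10 hearts had been enriched for poly(A) tails and sequenced. The authors deposited 1 table of FPKM, scaled by gene length and by a size set for each library. The library sizes implied by the FPKM were not proportional to the fragments assigned to genes in each heart. The submitters' processing notes name fastp, STAR 2.5, HTSeq 0.6.1 and mm10, and the annotation release, the use of strand and the handling of shared reads are not given in the sources used here. All 10 sample columns were mapped by the labels, and 0 were left unused. The product of FPKM and gene length rose in equal steps within each heart (tolerance 0.01 fragments), and dividing by that step gave the fragments of each gene. They served for depth (13647167 to 18474002 per heart) and for the limit of 3 fragments behind a count of 0, and cover counting error only. Coordinates are those of the table, and 44 of the 47 members have the same ones in GENCODE M21.

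The 12602 genes whose mean reached 0.5 FPKM were compared on the scale of log2(FPKM + 0.1) by limma (version 3.58.1 under R 4.3.3, eBayes with trend, two-sided, Benjamini-Hochberg adjustment, threshold 0.05), which understates changes of low genes. The fit was also run on simulated counts with the same spread setting for every gene. These lack the sex-linked and tissue differences of the hearts, and no result here rests on them. Log2 paralog ratios, with 0.1 added to each FPKM, were compared by exact permutation. Counts and figures were made in Python 3.11.15 with numpy 2.4.6 and pandas 2.3.3. Members, lists, pairs and tests were chosen with earlier results of these data known. Values in every heart are given for the 8 most abundant members, members with an unadjusted p under 0.05 and members whose groups do not overlap. Genes of other lists are named where their unadjusted p is under 0.05 or, failing that, as the 2 highest, and other genes with values were chosen after these were seen. The values of 1 member are not reported here, though it enters the counts. Hearts were labelled as biological replicates. Alternatives were pseudocounts, filters, scalings, eBayes options, a replicate block, gene classes and leaving out hearts, and 4 were chosen after seeing the data (voom on fragments, and leaving out the hearts highest in erythroid, adipocyte or atrial transcripts).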

Additional observations from a re-analysis of the deposited data

Results flagged for a closer look

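Within each group of 5 hearts, 7 of the 94 sets of values examined had a heart far from the other 4 by Dixon's criterion, which chance meets in about 1 of 20 sets (4.7 of 94). MEKi heart 5 was the highest of its group for *Slc25a39* (78.6 FPKM, others 51.5 to 55.1 FPKM) and for *Slc25a42* (6.28 FPKM, others 4.03 to 4.64 FPKM). Vehicle heart 1 was the lowest of its group for *Slc25a36* (2.60 FPKM, others 2.93 to 3.02 FPKM) and the highest for *Slc25a14* (1.01 FPKM, others 0.669 to 0.763 FPKM). The same heart had the highest ratio of *Slc25a4* to *Slc25a5* (19.6, others 13.5 to 15.2) and of *Slc25a14* to *Slc25a30* (0.723, others 0.322 to 0.405), and the latter shares its *Slc25a14* value with the gene itself. Vehicle heart 5 was the lowest of its group for *Slc25a35* (0.561 FPKM, others 1.16 to 1.41 FPKM).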

How the results depend on the processing

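In all 26 alternatives of the limma fit 0 carriers had an adjusted p under 0.05, with the lowest adjusted p between 0.317 (without vehicle heart 3) and 0.811 (with the replicate block). Over all genes the number called was 2 with a mean of at least 5 FPKM, 4 with the replicate block, 0 without X, Y and mitochondrial genes, from 5 (without vehicle heart 2; 6 without vehicle heart 5) to 13 when 1 heart was left out, and 5 without vehicle hearts 4 and 5, without vehicle heart 4 and MEKi heart 2, and without all 3 of these. The number of carriers whose groups do not overlap was 0 on both TPM scales, and also with a mean of at least 5 FPKM and without X, Y and mitochondrial genes, where *Slc25a14*, X-linked and below 5 FPKM, was not tested. It was 1 to 3 when 1 heart was left out (3 without vehicle heart 3 or 5, 2 without vehicle heart 2 or MEKi heart 2, 4 or 5), and 4, 2 and 5 without the same sets of hearts in the same order. With fewer hearts the share of all genes without overlap was also higher, going from 1.64% to between 2.41 and 3.61% with 1 heart left out (3.61 and 2.52% without vehicle heart 3 or 5, beside 7.89% of the carriers in either case) and to 5.32, 4.07 and 7.25% without those sets (carriers 10.5, 5.26 and 13.2%). The carriers' median log2 fold change ran from −0.02 to 0.06 when 1 heart was left out, was 0.10 on the TPM scale (0.09 over all genes) and −0.0015 on the TPM scale of nuclear genes.

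Small differences changed sign. The log2 fold change of *Slc25a39* was 0.018 on the TPM scale. That of *Slc25a34* was −0.011 on the nuclear TPM scale, −0.034 with quantile normalization, −0.14 without vehicle hearts 4 and 5, −0.046 when MEKi heart 2 was left out as well, and −0.10 to 0.11 when 1 heart was left out. *Slc25a11* was at −0.0077 without vehicle hearts 4 and 5 (0.041 to 0.14 with 1 heart left out), and *Slc25a1* at −0.0090 without these and MEKi heart 2. With 1 heart left out *Slc25a1* ran from −0.14 (without MEKi heart 2) to 0.27, and *Slc25a5* from −0.058 (without MEKi heart 5) to 0.18. The log2 ratio of *Slc25a33* to *Slc25a36* differed by 0.016 with a pseudocount of 1 and by −0.12 to 0.084 with 1 heart left out, and that of *Slc25a39* to *Slc25a40* by −0.13 to 0.068. The cause was not tested.

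In the labels, same-numbered hearts share only a replicate number. Their deviations correlated at −0.15 to −0.02, and 0 of 5 matched their own number best. With the replicate block 0 carriers passed, and *Slc25a25* had an adjusted p of 0.811 (limma, Benjamini-Hochberg). Carriers at 0.5 to 5 FPKM had a median residual SD of 0.298 on the log2 scale, against 0.188 at 50 FPKM or more, so differences in them are the least precise.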
